A study of Mus musculus with 5 samples.

Results

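The genes described are the collagens and the core stromal matrix genes of mouse colon. They are every protein-coding gene whose symbol has the form Col, number, a, number, together with Dcn, Lum, Fn1, Sparc, Postn, Tnc, Lox, Bgn, Fbn1, Pdgfra and Thy1. The rule used symbols only, but it was set with earlier results of these data known. Of the 55471 genes, 55 qualified. They comprise 11 fibrillar collagens, 8 basement membrane collagens, 25 other collagens and 11 other matrix genes.

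The RNA was from frozen colon of C57BL/6 males aged 11 weeks, collected on day 3 of a colitis induced with TNBS, a chemical that makes tissue proteins immunogenic. The vehicle group held 2 libraries and the propyzamide group 3, so both groups carried TNBS colitis and no healthy colon entered the comparison. Propyzamide is a herbicide, and the comparison asks how it changes this colitis. The labels give no dose, and they call each sample a mouse without saying that no animal gave more than 1, so p-values measure only the spread between these libraries.

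Fibroblasts, smooth muscle cells and pericytes make most of the matrix of the gut wall. Fibrillar collagens form the rope-like fibres that resist stretch, type IV collagen forms the sheet under epithelium and around vessels and muscle, and the remaining collagens decorate fibres, bead them together or span membranes. Fibronectin, tenascin-C and periostin are laid down during wound repair, and decorin, lumican and biglycan are small leucine-rich proteoglycans that bind collagen fibrils.

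Library totals ranged from 1573700 to 2706885 estimated counts, of which 823540 to 1328793 lay outside rRNA-like and mitochondrial genes. The 55 genes held 1772 to 4779 counts per library. A background was read from 1466 olfactory and vomeronasal receptor genes, taken as mostly unused by colon, which was not checked gene by gene. Of them, 77.1% and 60.8% had a count in the vehicle libraries, against 12.7%, 47.8% and 18.7% in the propyzamide libraries. The file names give both vehicle libraries the same second index and all propyzamide libraries another, so anything that goes with that index cannot be told apart from the treatment. Propyzamide replicate 3 was the highest of the 5 libraries in 22 of the 30 members tested, and propyzamide replicate 1 was the lowest propyzamide library in 18, so results that change without either are given both ways. In bulk tissue, fewer cells of a type and less RNA per cell cannot be told apart either.

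Tnc, a glycoprotein gene of wound matrix, rose in propyzamide, with 98.5 CPM on average against 19.8 in vehicle. Fn1, Col5a2 and Col12a1 were also higher in every propyzamide library but did not pass, and the type I collagen genes differed by less than their spread. Of the 30 members with enough counts to test, Tnc was the 1 that was higher at an edgeR adjusted p under 0.05, and 0 were lower. Over all 12024 genes tested, 1.9% passed in either direction, 0.69% higher and 1.21% lower. At an unadjusted p under 0.05, 9 members were higher and 1 was lower, against 8.52% and 9.65% of all genes. DESeq2 called 5 members, all higher, against 2.16% of all genes higher and 2.54% lower. The median log2 fold change of the 30 members, propyzamide minus vehicle, was 0.52, against -0.018 for all genes tested. It was 1.54 for the 11 other matrix genes, 0.52 for the 6 fibrillar collagens tested, 0.68 for the 3 basement membrane collagens and 0.30 for the 10 other collagens. On the simulated data made from these libraries, 3.08% of 65 genes changed 2-fold, 40% of 65 changed 4-fold and 81.4% of 70 changed 8-fold were recovered. The changed genes were drawn from all 12024 genes, so 2-fold changes were seldom detected over genes of all levels. Rates at the levels of the collagens were not simulated.

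**Figure D1:**
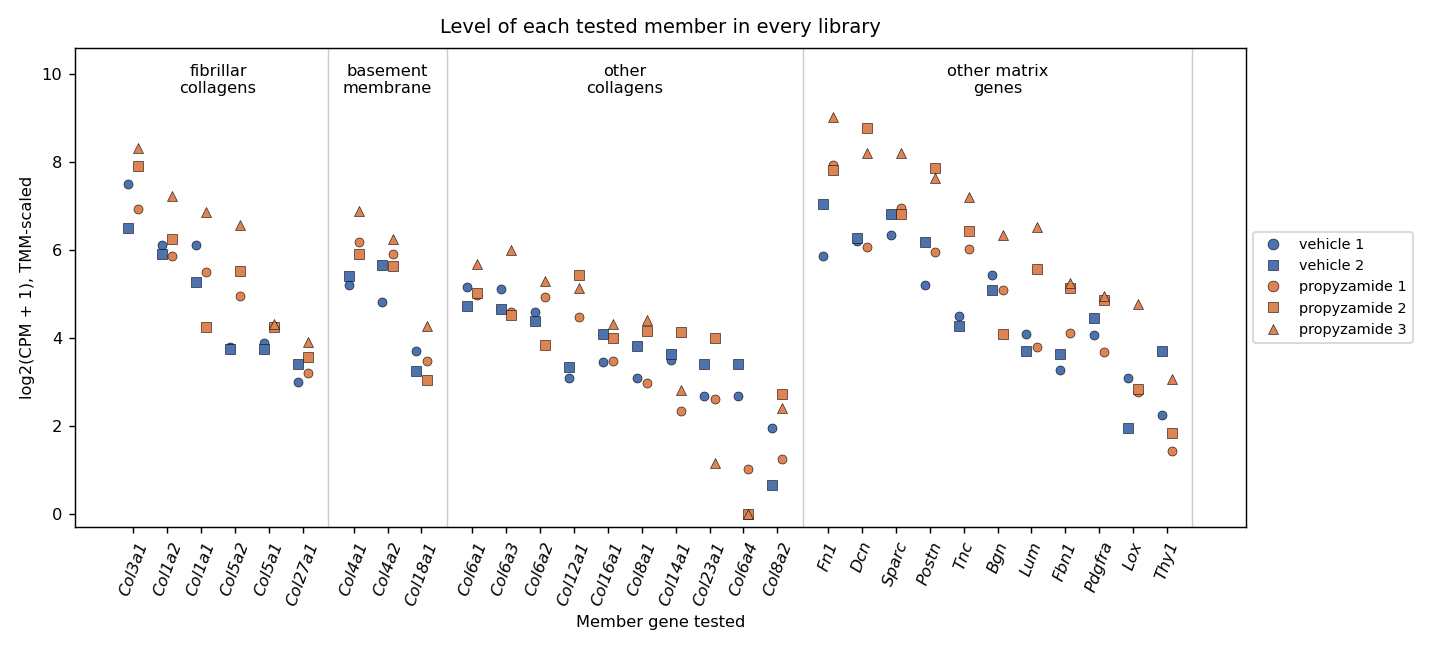
Level of each of the 30 tested members as log2(CPM + 1) in every library, blue for vehicle and orange for propyzamide, with the shape giving the replicate and the genes ordered by class and mean level. Tnc, Fn1 and Col5a2 lie above both vehicle libraries in all 3 propyzamide libraries, while Col1a1 and Bgn lie below them in propyzamide replicate 2 and above them in replicate 3.

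Tnc encodes tenascin-C, a hexameric glycoprotein that is sparse in resting gut and is made at sites of injury. It spans chromosome 4 from 63959785 to 64047015 on the minus strand of GRCm38. The window just before its annotated start is printed here with those of Col3a1 and Postn, because these 3 are the tested members whose 300-base promoter window in the table (250 bases before the start and 50 after it) holds the letters TATAAA on either strand. Capitals mark TATAAA and GGGCGG. The sequences are from RefSeq on GRCm38.p6, 5′ to 3′ on the strand of the gene, and show the 250 bases before the start.

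Tnc, chr4:64047016-64047265, minus strand: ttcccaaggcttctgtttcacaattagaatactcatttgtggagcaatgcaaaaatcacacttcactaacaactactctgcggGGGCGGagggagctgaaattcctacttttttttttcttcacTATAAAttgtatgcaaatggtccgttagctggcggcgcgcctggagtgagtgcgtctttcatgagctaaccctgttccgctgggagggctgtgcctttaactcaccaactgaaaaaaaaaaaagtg

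Col3a1, chr1:45311288-45311537, plus strand: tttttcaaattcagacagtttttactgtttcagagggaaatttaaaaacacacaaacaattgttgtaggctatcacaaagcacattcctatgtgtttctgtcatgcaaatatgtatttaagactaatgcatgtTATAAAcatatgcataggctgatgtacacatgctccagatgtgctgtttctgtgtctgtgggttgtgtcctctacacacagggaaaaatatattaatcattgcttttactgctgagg

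Postn, chr3:54360857-54361106, plus strand: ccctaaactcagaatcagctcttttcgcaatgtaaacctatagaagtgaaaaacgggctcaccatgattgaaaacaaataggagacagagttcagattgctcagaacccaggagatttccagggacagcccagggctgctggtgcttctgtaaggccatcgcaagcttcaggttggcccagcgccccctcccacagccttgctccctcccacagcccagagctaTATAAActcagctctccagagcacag

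In the windows printed, the first base of TATAAA lies 126 bases before the start in Tnc, 117 in Col3a1 and 26 in Postn. That of GGGCGG lies 167 bases before the start in Tnc. A second Tnc window, 64046937 to 64047186, overlaps an annotated exon and is not printed. There the same letters lie 205 (TATAAA) and 246 (GGGCGG) bases before its start. Of the 55 members, 41 were found in the promoter table, with 46 windows. On both strands, TATAAA was in 17.4% of the member windows and 13.6% of all 32851 windows, and GGGCGG in 58.7% against 35.7%. CCAAT was in 30.4% against 37.4%, TGANTCA in 2.17% against 7.81%, and the CArG box in 2.17% against 1.63%. A match describes letters, not a bound site.

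Tnc stood at 21.5 and 18.2 CPM in the vehicle libraries and at 63.6, 85.7 and 146 CPM in the propyzamide libraries. CPM are counts scaled to equal library size, with TMM factors. Every propyzamide library lay above both vehicle libraries of this gene. Group means were 19.8 ± 2.37 (SD, n = 2) and 98.5 ± 42.7 (SD, n = 3), a log2 fold change of 2.30 ± 0.44 (SE) with an edgeR adjusted p of 0.0274. The call was lost without propyzamide replicate 3 (adjusted p 0.0735), without vehicle replicate 1 (0.236) and without vehicle replicate 2 (0.175), while the log2 fold change stayed between 1.90 and 2.50 with any 1 library left out. In TPM, a per-length unit, Tnc measured 5.25 and 1.99 in vehicle and 10.02, 10.13 and 16.67 in propyzamide, with limma adjusted p of 0.227 and 0.272 for the pseudocounts 1 and 0.1.

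In the deposited estimates, the higher Tnc count was assigned to the transcript Tnc-201. Tnc-201 was estimated at 0 and 6.14 counts in vehicle and at 161, 141 and 188 counts in propyzamide. Tnc-204 was estimated at 50.7 and 25.9 counts in vehicle and at 25.9, 26.0 and 51.9 in propyzamide. The estimates of Tnc-204 overlapped between groups, and those of Tnc-201 did not. Both transcripts code for protein, and their exons share 6833 bases. They differ by the first exon of Tnc-204 alone, 267 bases at chromosome 4, 64046749 to 64047015, next to the window printed above. Tnc-201 starts at 64020725, and the sequence before that start is not the one shown. Only reads that reach that exon or its junction separate them, so the division between the transcripts rests on a small stretch. Tnc-201 has 0 exon bases of its own, so its estimate depends on how well that exon was covered, which was not tested.

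**Figure D2:**
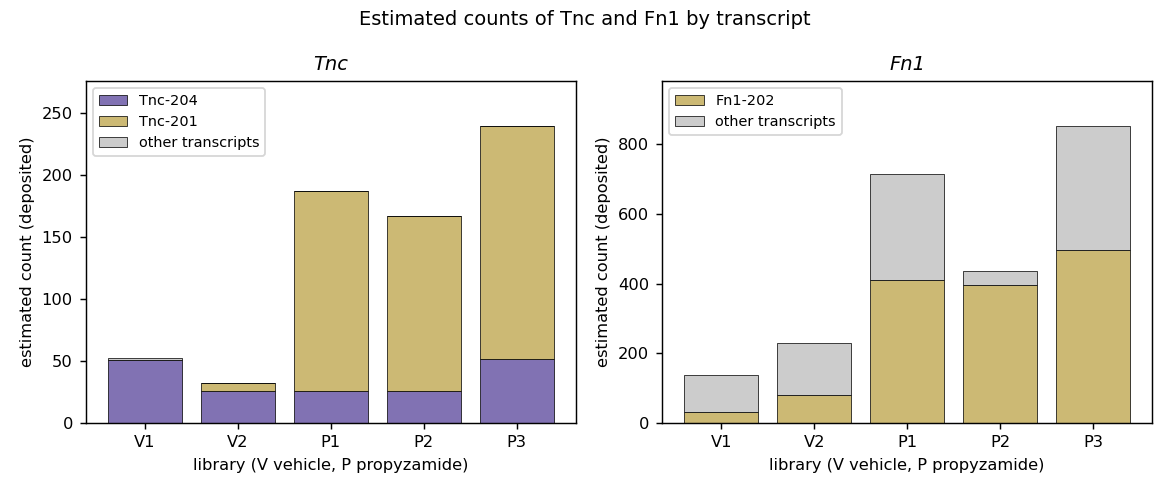
Deposited estimated counts of Tnc (left) and Fn1 (right) per library, stacked by transcript, with V for vehicle and P for propyzamide. Tnc-201 lies at 0 and 6.14 counts in vehicle and between 141 and 188 in propyzamide, and Fn1-202 holds 90.8% of the Fn1 count in propyzamide replicate 2.

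Fn1 encodes fibronectin, the glycoprotein on which cells assemble new matrix. Its level was 57.1 and 131 CPM in vehicle and 243, 224 and 520 CPM in propyzamide, without overlap. The log2 fold change was 1.81 ± 0.51 (SE) with an edgeR adjusted p of 0.0785, so it did not pass, whereas DESeq2 called it. The 2 vehicle libraries differed from each other more than 2-fold. Leaving out vehicle replicate 1 gave a log2 fold change of 1.31 and leaving out vehicle replicate 2 gave 2.58. The transcript Fn1-202, annotated as a retained intron at chromosome 1 from 71585526 to 71609567 with 17 exons, held 21.7% and 35.3% of the gene's estimated count in vehicle and 57.1%, 90.8% and 58.2% in propyzamide. It contains 626 bases, 71597748 to 71598373, that are in no exon of the coding transcript Fn1-201, and shares the other 3396 bases with it. All other Fn1 transcripts together held 108 and 149 counts in vehicle and 307, 40.3 and 357 in propyzamide, so in propyzamide replicate 2 they lay below both vehicle libraries.

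Periostin, encoded by Postn, binds collagen and helps cross-link it. Postn measured 35.6 and 72.1 CPM in vehicle and 60.8, 232 and 198 CPM in propyzamide. Propyzamide replicate 1 fell inside the vehicle range and the other 2 lay above it (log2 fold change 1.61 ± 0.55, edgeR adjusted p 0.145). Fbn1 encodes fibrillin-1, the scaffold of elastic microfibrils, and measured 8.69 and 11.3 CPM against 16.3, 34.4 and 37.1 CPM. Its groups did not overlap, yet the test was not passed (1.54 ± 0.49, edgeR adjusted p 0.119).

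Sparc encodes osteonectin, which chaperones collagen outside the cell. It stood at 79.8 and 111 CPM in vehicle and at 122, 112 and 295 CPM in propyzamide. The groups did not overlap, but propyzamide replicate 2 exceeded vehicle replicate 2 only narrowly (0.88 ± 0.46, edgeR adjusted p 0.336). Lox encodes lysyl oxidase, the enzyme that cross-links collagen and elastin, and measured 7.44 and 2.84 CPM against 5.78, 6.16 and 26.2 CPM. The high value was in propyzamide replicate 3 alone (1.23 ± 0.78, edgeR adjusted p 0.446).

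The 3 small proteoglycan genes had unlike values, a contrast that was not tested. Dcn, encoding decorin, stood at 72.4 and 76.0 CPM in vehicle and at 65.9, 439 and 293 CPM in propyzamide. Propyzamide replicate 1 lay below both vehicle libraries and the other 2 lay well above them (1.84 ± 0.62, edgeR adjusted p 0.141). Without propyzamide replicate 1 the adjusted p was 0.0152 and the log2 fold change 2.26, and without propyzamide replicate 2 the log2 fold change was 1.26. Lum, encoding lumican and lying 46984 bases from Dcn on chromosome 10, measured 16.1 and 11.9 CPM against 12.9, 46.2 and 91.3 CPM, also with propyzamide replicate 1 inside the vehicle range (1.81 ± 0.65, edgeR adjusted p 0.165). Bgn, encoding biglycan, overlapped, with 41.8 and 32.9 CPM against 33.0, 15.9 and 80.4 CPM. Its log2 fold change of 0.19 ± 0.54 was -0.60 without propyzamide replicate 3 and -0.03 on TPM with either pseudocount. The ratio of Dcn to Bgn counts was 1.73 and 2.31 in vehicle, 2 and 3.64 in propyzamide replicates 1 and 3, and 27.6 in propyzamide replicate 2.

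The remaining 2 of the 11 are cell-surface proteins of fibroblasts and their precursors. Pdgfra, the alpha receptor for platelet-derived growth factor, measured 15.7 and 21.0 CPM in vehicle and 11.9, 28.2 and 29.8 CPM in propyzamide. The groups overlapped, with a log2 fold change of 0.33 ± 0.47 that turned to -0.24 on log2(TPM + 1). Thy1, a surface glycoprotein of fibroblasts and T cells, measured 3.72 and 11.9 CPM against 1.70, 2.57 and 7.31 CPM. It is named after its values were seen, as the only one of the 11 with a negative log2 fold change (-1.04 ± 0.84, edgeR adjusted p 0.566), which was 0.07 without vehicle replicate 2.

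**Figure D3:**
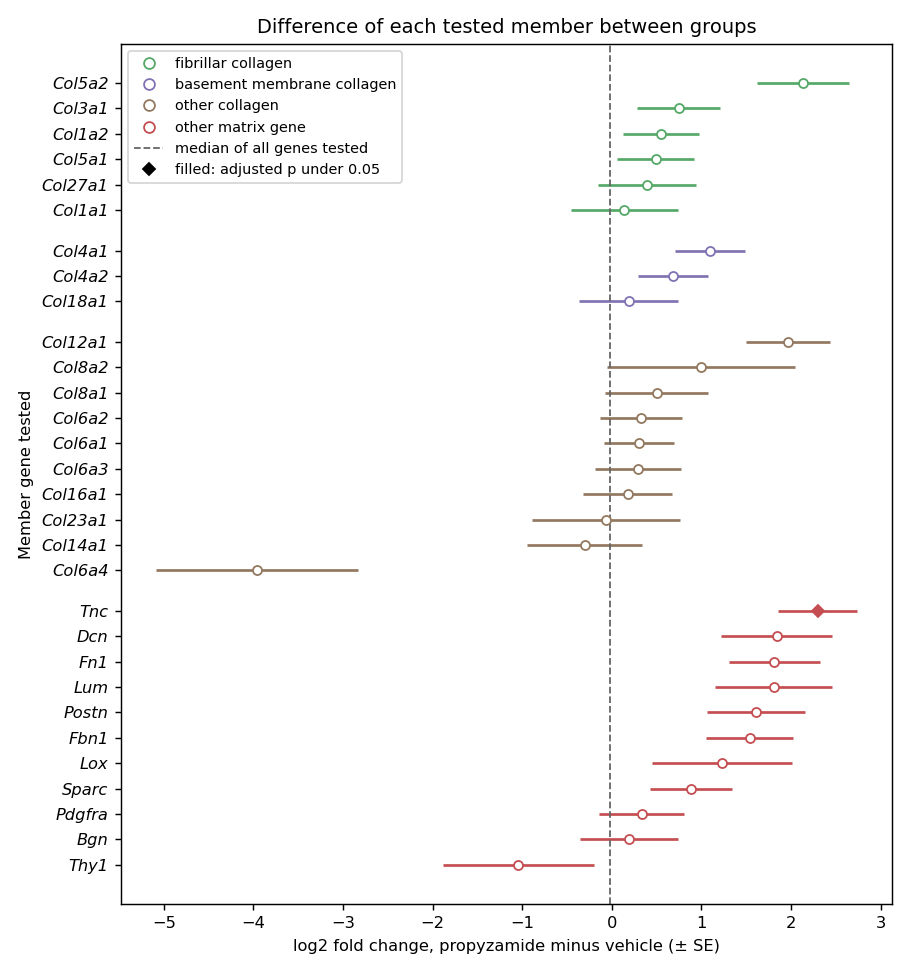
Log2 fold change, propyzamide minus vehicle, with its standard error for each of the 30 tested members, grouped by class; the dashed line is the median of all genes tested at -0.018 and a filled diamond marks an edgeR adjusted p under 0.05. Tnc carries the filled mark, Col6a4 lies lowest at -3.96, and Col1a1 and Bgn lie near the line.

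Among the fibrillar collagens, 0 of the 6 tested passed in edgeR, and Col5a2 was the 1 gene with an unadjusted p under 0.05 and the 1 called by DESeq2. Col1a1 and Col1a2 encode the chains of type I collagen, the main fibre protein of connective tissue. Col1a1 stood at 68.2 and 37.4 CPM in vehicle and at 44.2, 18.0 and 114 CPM in propyzamide. Both the lowest and the highest library were propyzamide. The log2 fold change was 0.14 ± 0.59, and it was -0.76 without propyzamide replicate 3, -0.17 without vehicle replicate 2 and -0.45 on log2(TPM + 1). Col1a2 measured 68.2 and 59.0 CPM against 56.8, 75.5 and 149 CPM (0.55 ± 0.43, edgeR adjusted p 0.548).

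Col3a1 encodes type III collagen, which is mixed with type I in distensible tissue. It had 180 and 89.1 CPM in vehicle and 121, 240 and 319 CPM in propyzamide, overlapping at propyzamide replicate 1 (0.75 ± 0.46, edgeR adjusted p 0.435). On TPM the order of libraries differed: 119 and 27.4 in vehicle and 52.4, 38.1 and 89.3 in propyzamide, a log2 difference of -0.02. One short transcript, Col3a1-205 of 737 bases, held 12.9% of the count but 58.8% of the TPM in vehicle replicate 1. In propyzamide replicate 2 it held 0.53% of the count and 4.62% of the TPM.

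The ratio of Col3a1 to Col1a1 counts was 2.64 and 2.38 in vehicle, 2.73 and 2.79 in propyzamide replicates 1 and 3, and 13.4 in propyzamide replicate 2. That of Col1a2 to Col1a1 was 1 and 1.58 in vehicle, 1.28 and 1.30 in propyzamide replicates 1 and 3, and 4.2 in propyzamide replicate 2. The same library stood apart in both ratios and in the Dcn to Bgn ratio. It had the lowest Col1a1 and Bgn levels of the 5 libraries, 18.0 and 15.9 CPM, and the highest Dcn level, 439 CPM, with Col3a1 above both vehicle libraries at 240 CPM. Across 29 tested members with a known GC content, the deviation of a library from the rest of its group ran with GC at r = -0.29 in propyzamide replicate 2 and 0.55 in propyzamide replicate 1. Over all 11974 genes the values were -0.32 and 0.21. These are correlations across genes of the same library, and the part of GC content in the ratios was not tested.

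Type V collagen sets the width of type I fibres, and its chains had unequal log2 fold changes, whose difference was not tested. Col5a2 stood at 12.8 and 12.5 CPM in vehicle and at 29.9, 44.7 and 94.4 CPM in propyzamide. All 3 propyzamide libraries were more than 2-fold above vehicle. The log2 fold change of 2.14 ± 0.51 had an edgeR adjusted p of 0.0514, just short of the threshold, and DESeq2 called it. Col5a1 measured 13.6 and 12.5 CPM against 18.4, 18.0 and 18.9 CPM, without overlap, at a log2 fold change of 0.49 ± 0.43 (edgeR adjusted p 0.603). Col5a2 and Col3a1 lie tail to tail on chromosome 1 with 24614 bases between them. The remaining fibrillar gene tested was Col27a1, a cartilage-type fibrillar collagen, with 7.03 and 9.65 CPM against 8.16, 10.8 and 14.0 CPM. Its groups overlapped and it lay under 5 times the background.

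Among the basement membrane collagens, 0 of the 3 tested passed in edgeR or in DESeq2, and Col4a1 alone had an unadjusted p under 0.05. Col4a1 and Col4a2 encode the common type IV chains and sit head to head on chromosome 8, overlapping by 22 bases. Col4a1 measured 35.6 and 41.4 CPM in vehicle and 72, 59.0 and 117 CPM in propyzamide, without overlap (1.10 ± 0.39, edgeR adjusted p 0.161). Col4a2 measured 27.3 and 49.4 CPM against 59.5, 48.8 and 75.5 CPM, overlapping at propyzamide replicate 2 by a small margin (0.68 ± 0.39, edgeR adjusted p 0.388). On TPM, Col4a1 was highest of its 5 libraries in vehicle replicate 1, at 27.5. Col18a1, whose protein releases endostatin, measured 12 and 8.51 CPM against 10.2, 7.19 and 18.3 CPM. Its log2 fold change of 0.19 ± 0.56 turned to -0.32 with an offset for transcript length and to -0.56 on log2(TPM + 1).

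Among the other collagens, 0 of the 10 tested passed in edgeR, an unadjusted p under 0.05 was reached by 1 higher and 1 lower gene, and Col12a1 was the 1 called by DESeq2. Col12a1 encodes type XII collagen, which coats fibres and links them to neighbouring matrix. It stood at 7.44 and 9.08 CPM in vehicle and at 21.1, 42.1 and 34.1 CPM in propyzamide. The groups did not overlap, and the log2 fold change of 1.96 ± 0.47 had an edgeR adjusted p of 0.0508. The background for a gene of its length was 5.21 CPM in vehicle, 63.0% of its mean level of 8.26 CPM there, and 1.71 CPM in propyzamide. With the background subtracted, the log2 fold change was 3.18 and the adjusted p 0.0371. Col14a1, encoding the related type XIV collagen, measured 10.3 and 11.3 CPM against 4.08, 16.4 and 6.09 CPM. Its propyzamide libraries lay on both sides of vehicle (-0.30 ± 0.64), and the log2 fold change was 0.03 without propyzamide replicate 1.

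The 3 main type VI chains, which form beaded filaments around cells, moved little relative to their spread. Col6a1 measured 34.7 and 25.5 CPM in vehicle and 30.6, 31.3 and 50.5 CPM in propyzamide. Col6a2 measured 23.2 and 19.9 CPM against 29.6, 13.3 and 38.4 CPM, and Col6a3 33.5 and 24.4 CPM against 23.1, 22.1 and 62.7 CPM. Their log2 fold changes were 0.30, 0.33 and 0.29, each with a standard error at least as large, and Col6a3 was at -0.36 without propyzamide replicate 3.

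Col8a1, Col16a1 and Col23a1 complete the 8 other collagens of highest mean CPM, an order that does not hold per length. Col8a1, a network collagen of vessels, had 7.44 and 13.1 CPM against 6.80, 16.9 and 20.1 CPM. Col16a1, found near fibrils and at cell surfaces, had 9.93 and 15.9 CPM against 10.2, 14.9 and 18.9 CPM. Col23a1, a transmembrane collagen, had 5.38 and 9.65 CPM against 5.10, 14.9 and 1.22 CPM. All 3 overlapped between groups. Col8a2, the partner chain of Col8a1 and outside these, had 2.90 and 0.57 CPM against 1.36, 5.65 and 4.26 CPM, also overlapping.

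Col6a4, a type VI chain, was the 1 gene of the 30 tested that was lower without overlap, and was picked out after its values were seen. It stood at 5.38 and 9.65 CPM in vehicle, at 1.02 CPM in propyzamide replicate 1 and at 0 in the other 2. Counts were 13 and 17 in vehicle and 3, 0 and 0 in propyzamide, so only the vehicle libraries carried it past the count filter. Its difference and lack of overlap thus depend on a choice made through the group where it was high. The log2 fold change was -3.96 ± 1.12 with an edgeR adjusted p of 0.083, and the vehicle level was under 5 times the background. The receptor background is itself higher in vehicle, at 2.91 CPM for a gene of this length against 0.96 CPM in propyzamide, and its part in the difference was not tested. Col6a4 stands beside Col6a5 and Col6a6 on chromosome 9, and reads of such related chains may have been divided among them.

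In all, 8 of the 30 tested members were higher and 1 lower without overlap between groups, against 16.7% and 20.8% of all genes tested. The 8 were Col5a1, Col5a2, Col4a1, Col12a1, Fn1, Tnc, Fbn1 and Sparc. The share of higher members was above that of all genes and the share of lower members below it, with no test of either. Without propyzamide replicate 3 the median log2 fold change of the members was 0.25, and 22 of 30 were positive. Without propyzamide replicate 1 it was 0.66, and edgeR called 8 members, 7 higher and Col6a4 lower. Calls over all 11173 genes also rose, to 214 higher and 285 lower from 83 and 146.

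The other 25 members, all collagens, had too few counts to test, between 2 and 36 over the 5 libraries. They were the fibrillar genes Col2a1, Col5a3, Col11a1, Col11a2 and Col24a1, the basement membrane genes Col4a3, Col4a4, Col4a5, Col4a6 and Col15a1, and 15 of the other collagens. All 25 lay under 5 times the background and 13 lay under it. In 19 the vehicle mean was the higher and in 6 the propyzamide mean. The receptor background was itself higher in vehicle, and its part in this was not tested. Col13a1, a transmembrane collagen, had 12 counts in vehicle and 0 in propyzamide, at least 6.25-fold lower against a floor of 3 counts over the group. Its 12 counts were 9 and 3 in the vehicle replicates. Transcripts annotated as retained introns held 5.83 and 2.04 of the 9, and 1 and 2 of the 3. Its vehicle mean was 2.71 CPM, where the background for its length was 1.57 CPM in vehicle and 0.52 CPM in propyzamide. Col2a1, Col6a6 and Col11a2 were also at 0 in propyzamide, but their vehicle means of 2.35, 2.38 and 1.24 CPM lay under the vehicle background for their lengths, 3.16, 3.13 and 2.35 CPM, so no fold is given. Of the 11 Col2a1 counts 10 were in vehicle replicate 1, as were all 6 of Col11a2. Col9a1 had 2 counts in vehicle and 0 in propyzamide, which is under the floor in both. Col26a1, singled out after its values were seen, had 21 and 7 counts in vehicle and 0, 0 and 1 in propyzamide. Its coding transcript Col26a1-201 was estimated at 2.73 and 2.68 of the vehicle counts, and the rest lay on retained introns. Floors cover counting error only, and the reads carry no molecular identifiers.

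Between genes, levels are compared per length, in TPM averaged over the 5 libraries. Dcn came first at 104 TPM with libraries from 35.2 to 221, then Sparc at 89.3 from 47.1 to 146, Col3a1 at 65.2 from 27.4 to 119, and Fn1 at 47.7 from 20.8 to 91.0. Postn followed at 37.8, Bgn at 22.7, Col4a1 at 17.9 and Col1a2 at 16.8 TPM. The ranges of neighbours in this order overlapped, so the data do not separate adjacent ranks. The order differed by group: the vehicle means were 81.4 TPM for Sparc, 73.1 for Col3a1, 55.6 for Dcn, 23.4 for Bgn and 22.6 for Fn1. In propyzamide they were 135.5 TPM for Dcn, 94.5 for Sparc, 64.5 for Fn1, 59.9 for Col3a1 and 49.8 for Postn. Over the 5 libraries, Col1a1 ranked twelfth at 10.01 TPM. Summed TPM did not order the libraries as CPM did. The 44 collagens summed to 356 and 108 TPM in vehicle and to 176, 141 and 268 TPM in propyzamide. The highest sum was vehicle replicate 1. That library also had the highest TMM factor, 1.61, against 0.80 in vehicle replicate 2 and 0.81 to 1.10 in propyzamide. Its share of rRNA-like counts was the lowest, 26.3% against 36.7% to 43.6% in the others. The part of either in the order of libraries was not tested.

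In CPM, the 44 collagens summed to 632 and 506 in vehicle and to 568, 727 and 1185 in propyzamide, so that propyzamide replicate 1 fell between the vehicle libraries. The 11 other matrix genes summed to 360 and 500 CPM in vehicle and to 638, 1226 and 1724 CPM in propyzamide, without overlap. In TPM these 11 summed to 307 and 159 against 269, 430 and 538, so propyzamide replicate 1 lay between the vehicle libraries. The fibrillar sums were 360 and 225 against 281, 410 and 719 CPM. The basement membrane sums were 89 and 116 against 148, 124 and 213 CPM, without overlap. On TPM they overlapped, at 48.96 and 16.21 in vehicle and 36.95, 19.33 and 35.86 in propyzamide. The remaining collagens summed to 183 and 165 against 138, 193 and 253 CPM.

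**Figure D4:**
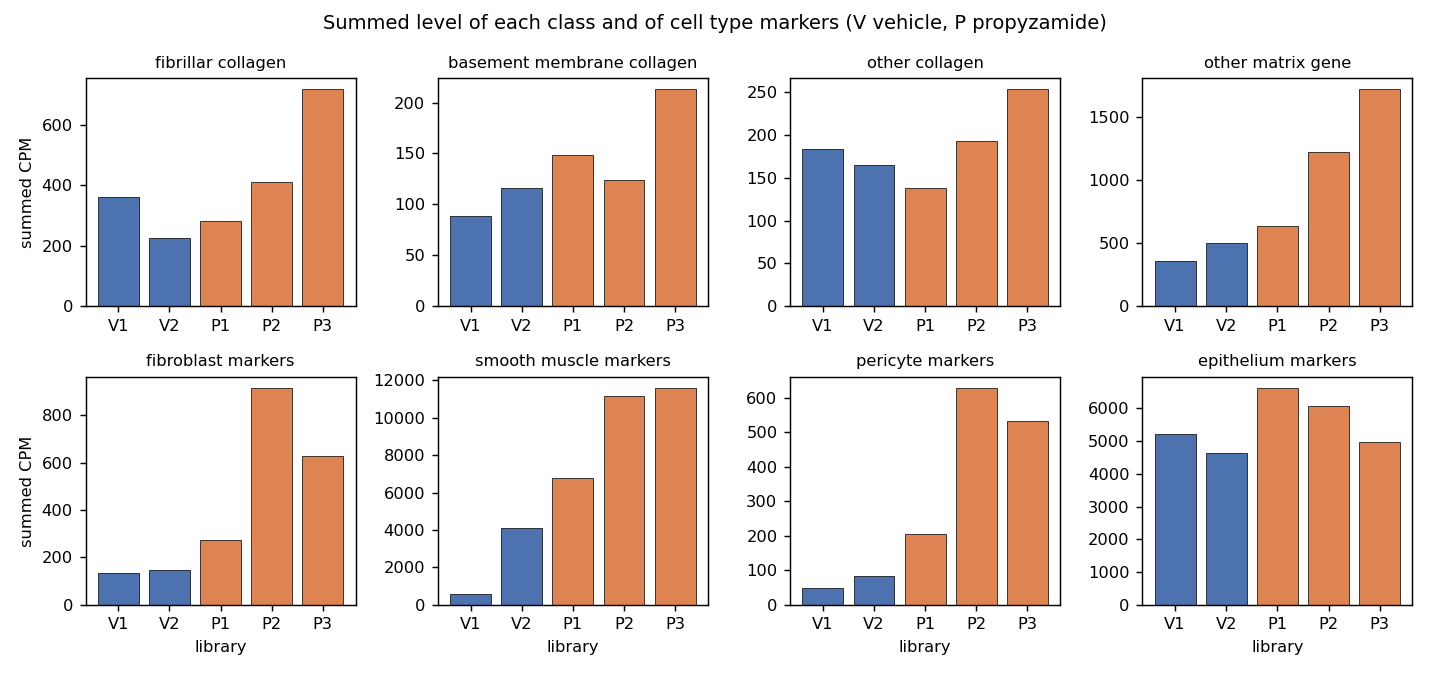
Summed CPM per library of the 4 classes of members (upper row) and of 4 lists of cell type markers (lower row), with V for vehicle, P for propyzamide and all axes from 0. The other matrix genes sum to 360 and 500 CPM in vehicle and to 638 or more in propyzamide, and smooth muscle markers range from 602 CPM in vehicle replicate 1 to 11601 CPM in propyzamide replicate 3.

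Summed over each list, markers of muscle, fibroblasts, pericytes and fat were also higher in each propyzamide library than in both vehicle libraries. The order of libraries was not that of the collagens. Single markers did not all separate: 10 of 12 smooth muscle, 2 of 7 fibroblast and 2 of 4 pericyte markers tested were higher without overlap. A further fibroblast marker was lower without overlap. Over all genes tested, 16.7% were higher and 20.8% lower without overlap. The 12 smooth muscle markers summed to 602 and 4123 CPM in vehicle and to 6760, 11142 and 11601 CPM in propyzamide, with 0 of 12 passing in edgeR and 11 of 12 higher at an unadjusted p under 0.05. The 10 fibroblast markers summed to 136 and 149 CPM against 276, 916 and 627 CPM, with 1 of 7 tested passing and Twist2 at 0 in propyzamide. The 5 pericyte markers summed to 49.2 and 82.3 CPM against 206, 628 and 533 CPM, with 1 of 4 tested passing. The 7 adipocyte markers summed to 8.69 and 10.2 CPM against 34.0, 54.4 and 250 CPM, with both tested markers (Cidec and Cfd) passing and Lep at 0 in propyzamide. Within vehicle these 4 sums were lower in replicate 1, where the collagen sum was higher, and the fibroblast and pericyte sums peaked in propyzamide replicate 2, the collagen sum in replicate 3. The sum of the 11 other matrix genes had the same order of libraries as the smooth muscle and adipocyte sums. It ran from 360 CPM in vehicle replicate 1 to 1724 CPM in propyzamide replicate 3. The part of these cell types in the matrix results was not tested.

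The sums of the other cell types overlapped between groups, except those of glia and neurons. Blood endothelium had 50.9 and 42.6 CPM against 33.6, 16.4 and 51.7 CPM, and epithelium 5227 and 4622 CPM against 6623, 6066 and 4959 CPM, with 1 of 8 markers passing. Mesothelium had 967 and 678 CPM against 1198, 764 and 850 CPM. Glia and neurons had 23.2 and 25.5 CPM against 30.6, 39.5 and 34.1 CPM, with 0 of 6 tested markers passing in edgeR and 0 at an unadjusted p under 0.05. Leukocyte markers had 42.6 and 53.3 CPM against 22.8, 38.0 and 49.9 CPM, with Cd3e and Cd79a at 0 in propyzamide.

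The partners of these genes were taken from 7 lists of 104 genes, of which 83 were tested. Itgb1 passed, 0 passed lower, and DESeq2 called 8, where it called 2.16% of all genes higher and 2.54% lower. At an unadjusted p under 0.05, 16 were higher and 2 lower, against 8.52% and 9.65% of all genes, and the median log2 fold change was 0.33. The lists of receptors (10 tested, median 1.27) and matricellular proteins (12 tested, median 0.83) had the higher medians. Itgb1 encodes the integrin beta 1 chain, shared by the collagen and fibronectin receptors. It measured 62.0 and 64.1 CPM in vehicle and 202, 399 and 354 CPM in propyzamide (2.33 ± 0.42, edgeR adjusted p 0.0210), and the call was lost without propyzamide replicate 3 (0.0697), vehicle replicate 1 (0.212) or vehicle replicate 2 (0.123), with log2 fold changes of 2.25, 2.29 and 2.41. Itga1, a collagen-binding alpha chain, measured 15.3 and 47.1 CPM against 94.8, 236 and 121 CPM (2.28 ± 0.55, edgeR adjusted p 0.0511). Itgav, the alpha chain of receptors that bind fibronectin and latent TGF-beta, measured 17.8 and 9.65 CPM against 34.3, 51.8 and 45.7 CPM (edgeR adjusted p 0.0596).

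Genes that fold and modify procollagen had differences in both directions. Of the 17 tested, 0 passed, 9 were positive and 8 negative, with a median of 0.06. Plod2, which hydroxylates lysines at the collagen ends, had the smallest p there (3.31 and 2.27 CPM against 8.16, 21.0 and 6.70 CPM, edgeR adjusted p 0.164), followed by the collagen chaperone Serpinh1 (0.444) and Plod3 (0.556). Genes for procollagen cleavage and cross-linking had a median of 0.17 over 6 tested, led by the lysyl oxidase-like Loxl2 (11.2 and 15.3 CPM against 22.8, 24.6 and 48.7 CPM, edgeR adjusted p 0.170), then Tgm2 (0.274) and Adamts2 (0.655).

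Laminins and basement membrane partners had a median of -0.03 over 12 tested. Nid1, encoding nidogen-1, which ties laminin to type IV collagen, was at 19.0 and 14.8 CPM against 35.7, 47.2 and 49.3 CPM (edgeR adjusted p 0.0786). Lama3, the alpha 3 chain of epithelial laminin, was at 45.5 and 67.5 CPM against 29.6, 27.2 and 17.0 CPM (adjusted p 0.123), and Lamc1 had an adjusted p of 0.437. Elastic fibre and small proteoglycan genes had a median of 0.41 over 18 tested. Aspn, encoding asporin, a relative of decorin, was at 4.14 and 12.5 CPM against 12.6, 96.0 and 62.7 CPM (edgeR adjusted p 0.0732), and Ogn (0.138) and Ltbp1 (0.249) followed. Among matricellular genes, Thbs4, encoding thrombospondin-4, was at 126 and 91.9 CPM against 53.4, 27.7 and 20.1 CPM (-1.67 ± 0.42, edgeR adjusted p 0.0560), opposite in sign to Thbs1 (1.82, 0.0708) and Sparcl1 (2.18, 0.124). The list of TGF-beta ligands and receptors, which also held the TGF-beta-induced matrix gene Tgfbi, had a median of 0.26 over 8 tested. Its smallest p were those of Tgfbi (edgeR adjusted p 0.157), Tgfbr1 (0.333) and Acvrl1 (0.508).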

How the data were processed

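Bulk RNA-seq of 5 libraries was analysed, made by the SMART-Seq2 method per the labels' protocols. The authors deposited 1 table per library with the expected count, effective length and TPM of each transcript, per the file headers. Per the submitters' processing notes, the tools were RSEM and kallisto and the build GRCm38, with neither version nor role stated. How reads were aligned and to which annotation, and whether strand was used, is not stated in the labels or headers, so genes that overlap or resemble each other may share reads. Deposited estimated counts (142647 transcripts) were added up within each of 55471 genes, then rounded. The deposited TPM were summed per gene. The test was edgeR 4.0.16 in R 4.3.3, with its filterByExpr filter, TMM, quasi-likelihood F test, Benjamini-Hochberg adjustment over 12024 genes and a threshold of 0.05. Standard errors came from the F statistic. The procedure was tested on simulated data.

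Libraries were not near copies of each other (chi-square per degree of freedom 16.0 to 48.1). DESeq2 1.42.0, limma 3.58.1 on log2(TPM + 1) and log2(TPM + 0.1), other scalings, filters, a length offset, background handling and each library left out were alternatives. Values are given for each member with an adjusted p under 0.05, for fibrillar, basement membrane and other matrix genes with a mean of at least 10 CPM in a group, and for the 8 other collagens of highest level. Up to 3 partners of smallest p are named per list. The members and lists were chosen with earlier results of these data known. Protein sequences were not analysed here.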

Additional observations from a re-analysis of the deposited data

How the results depend on the processing

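Both vehicle libraries and 2 of the propyzamide libraries share replicate numbers, but the labels tie the numbers to nothing. Deviations from the group means correlated at 0.17 for number 1 and 0.15 for number 2, over 2 pairs. With the replicate block, edgeR called 4 members (Col5a2, Col12a1, Fn1 and Tnc) and 8 partners. It then called 324 genes higher and 315 lower of all 12024, against 83 and 146 without the block. Against 1 member called, 5 were called by DESeq2, 10 with no filter on low counts (450 higher and 877 lower of all 37309 genes), 2 each with the length offset, with background subtracted and without rRNA-like and mitochondrial genes, and 0 by limma on log2(TPM + 0.1). Limma on log2(TPM + 1) called 1, Col6a4, lower, against 66 higher and 424 lower of all genes. On log2(TPM + 0.1) it called 40 higher and 237 lower of all genes. Over all genes the length offset called 64 higher and 96 lower, and background subtraction 54 and 55. Without rRNA-like and mitochondrial genes, 104 were called higher and 258 lower. Leaving out 1 propyzamide library gave 0 to 8 members, with 31 to 214 higher and 47 to 285 lower over all genes. With 1 vehicle library, that library is assumed to vary like the propyzamide libraries. Members without overlap numbered 9 (8 higher and 1 lower), 19 of all 55 with no filter (9 higher and 10 lower) and 12 to 18 with 1 library left out. The 18, without vehicle replicate 2, were 12 higher and 6 lower. The share over all genes was not computed in these settings. Fewer libraries make a lack of overlap easier for any gene, so the larger counts are not read as a result about the members. Against 1 partner called, 8 were called by DESeq2, 11 with no filter, 2 each with the length offset, upper-quartile scaling and limma on log2(TPM + 1), 0 with limma on log2(TPM + 0.1), and 0 to 9 with 1 library left out. The median of the members stayed positive in all 17 settings, from 0.11 to 0.66, but that of the collagens did not. With log2(TPM + 1) and log2(TPM + 0.1), the median of all collagens tested was -0.074 and -0.071. By class these medians were 0.025 and 0.032 for fibrillar, 0.20 and 0.22 for basement membrane and -0.17 and -0.21 for other collagens. The other matrix genes were then at 0.59 and 0.92, and at 0.81 with the replicate block. The median of all genes was -0.39 and -0.47 on TPM, and 16 of 30 members were then positive, with the members' median 0.51 and 0.61 above it. It was -0.14 with upper-quartile scaling and -1.14 with no filter. Of 845 gene values compared, 736 kept direction and side of the threshold, 10 lost the call, 56 gained it and 43 changed sign; none of the sign changes touched a called gene, and the cause was not tested.

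On limma with log2(TPM + 0.1), sign changes were Col18a1 -0.66, Col1a1 -0.52, Col27a1 -0.071, Col3a1 -0.020, Col16a1 -0.41, Col6a1 -0.16, Col6a2 -0.13, Col8a1 -0.25, Bgn -0.029 and Pdgfra -0.31. With log2(TPM + 1) they were Col18a1 -0.56, Col1a1 -0.45, Col27a1 -0.074, Col3a1 -0.024, Col16a1 -0.38, Col6a1 -0.17, Col6a2 -0.11, Col8a1 -0.17, Bgn -0.028 and Pdgfra -0.24. With the replicate block they were Col18a1 -0.24, Col1a1 -0.82, Col16a1 -0.028, Col23a1 0.29, Col6a2 -0.071, Col6a3 -0.35 and Bgn -0.67. With 1 library left out, the range was -0.24 to 0.44 for Col18a1, -0.76 to 0.62 for Col1a1, -1.12 to 0.030 for Col14a1, -0.15 to 0.60 for Col16a1, -1.14 to 0.45 for Col23a1, -0.36 to 0.53 for Col6a3, -0.60 to 0.57 for Bgn and -1.85 to 0.065 for Thy1. The length offset gave Col18a1 -0.32, background subtraction Col1a1 -0.0031 and Col23a1 0.058, and no filter Col23a1 0.047.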
